A study of Mus musculus with 37 samples.

Results

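Antibody gene expression was followed in the colon of Timp1 knockout and wild-type mice with dextran sodium sulphate (DSS) colitis, through 11 immunoglobulin symbols of 19938 genes with a signal on the array. These were the transcript clusters whose annotation gives exactly 1 symbol, where that symbol names an immunoglobulin variable, joining or constant gene, with 1 cluster kept per symbol by its highest mean over the 37 arrays. They comprised 3 heavy-chain constant genes on chromosome 12, Igha (IgA), Ighg3 (IgG3) and Ighm (IgM), and 8 variable segments of the kappa light chain on chromosome 6, Igkv10-96, Igkv19-93, Igkv4-55, Igkv4-91, Igkv5-43, Igkv6-20, Igkv8-30 and Igkv9-120. No heavy-chain variable, lambda or joining segment, and no kappa or lambda constant gene, had a cluster of its own (0 symbols each), so the set is narrower than immunoglobulin genes at large. A further 14 clusters carry several symbols that are all immunoglobulin genes, and these were kept apart.

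An antibody is built from heavy and light chains, and each chain joins a variable segment, which contacts antigen, to a constant region, which for the heavy chain sets the antibody class. B cells carry IgM on their surface, and plasma cells secrete antibody in bulk. In the gut wall most plasma cells make IgA, which is linked into dimers by the joining chain (Jchain) and carried across the epithelium by the polymeric immunoglobulin receptor (Pigr).

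Each array held total RNA from the snap frozen colon of 1 mouse, hybridized to the Affymetrix Mouse Gene 1.0 ST array. Knockouts were B6.129S4-Timp1tm1Pds/J mice, with a targeted allele of the metalloproteinase inhibitor Timp1, and wild types were C57BL/6J. DSS, a polysaccharide that injures the colonic epithelium, was given by mouth in a chronic or an acute protocol, each with its own control mice, and the labels give neither age nor the length of treatment. The chronic arm had 5 knockout DSS, 5 knockout control, 5 wild-type DSS and 5 wild-type control mice, and the acute arm had 6 knockout DSS, 3 knockout control, 5 wild-type DSS and 3 wild-type control mice. Every mouse is a separate animal by the number in its title. These numbers were sorted by their form into 4 series, which cut across the groups unevenly. The labels name no series and do not say what one stands for. Series 4 holds every knockout of the chronic arm together with wild-type chronic controls 4 and 5, and series 3 holds the rest of the chronic wild types. In the acute arm, series 1 holds the wild types and, from the knockouts, DSS mice 1 to 3, and series 2 holds the remaining knockouts.

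Levels are on the log2 scale, each difference is given ± its standard error (SE) from a limma model of all 19938 genes, and a gene is called at a Benjamini-Hochberg adjusted p under 0.05. The array medians lay between 7.67 and 7.76. Timp1 itself was at 7.10 to 8.68 in the 6 knockout acute DSS colons, against 9.47 to 12.19 in the 5 wild-type acute DSS colons. Its ranges overlapped under chronic DSS, at 6.83 to 7.30 in knockouts and 7.20 to 9.27 in wild types. They also did in the chronic controls, at 6.84 to 7.46 in knockouts and 6.99 to 7.28 in wild types. Markers of colon epithelium averaged 11.36 or more on every array except wild-type acute DSS arrays 1 and 3, at 10.64 and 9.37. The wild-type chronic controls 1 to 3 stood apart in posterior Hox genes, which mark position along the gut, with Hoxd13 at 11.37 to 11.48 and Hoxd12 at 8.87 to 9.26, against 6.90 to 10.27 and 6.43 to 7.38 on the other 34 arrays. The arrays of knockout acute control 2 and knockout acute DSS 4 carried Y-linked signal (Eif2s3y at 9.55 to 9.94, against 4.71 to 5.02 on the other 35). Xist was low on the same arrays, at 5.81 to 5.82, against 11.76 to 12.57 on the other 35, a male-like pattern. Counts of called immunoglobulin symbols that include any of these 7 arrays are also given without them.

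Immunoglobulin signals varied far more between mice of 1 group than most genes did. The SD within groups, pooled over the 8 groups, put the 11 symbols between the 98.5th and the 99.9th percentile of all genes, led among the variable segments by Igkv4-91 (1.19), Igkv19-93 (1.15), Igkv9-120 (1.05) and Igkv10-96 (0.91). In wild-type acute DSS colons the median SD of the 11 was 1.31, against 0.14 for all genes. On some arrays the symbols deviated together. On wild-type chronic DSS array 3 all 11 lay above their group mean, and on array 1 of that group 0 did. Likewise 11 of 11 were above the group mean on wild-type chronic control 5, wild-type acute DSS 3 and knockout acute control 2, and 0 of 11 on wild-type chronic control 1, knockout acute control 1 and knockout acute DSS 5. On 14 of the 37 arrays between 4 and 7 of the 11 lay above the group mean, among them wild-type chronic DSS 4 with 6.

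**Figure D1:**
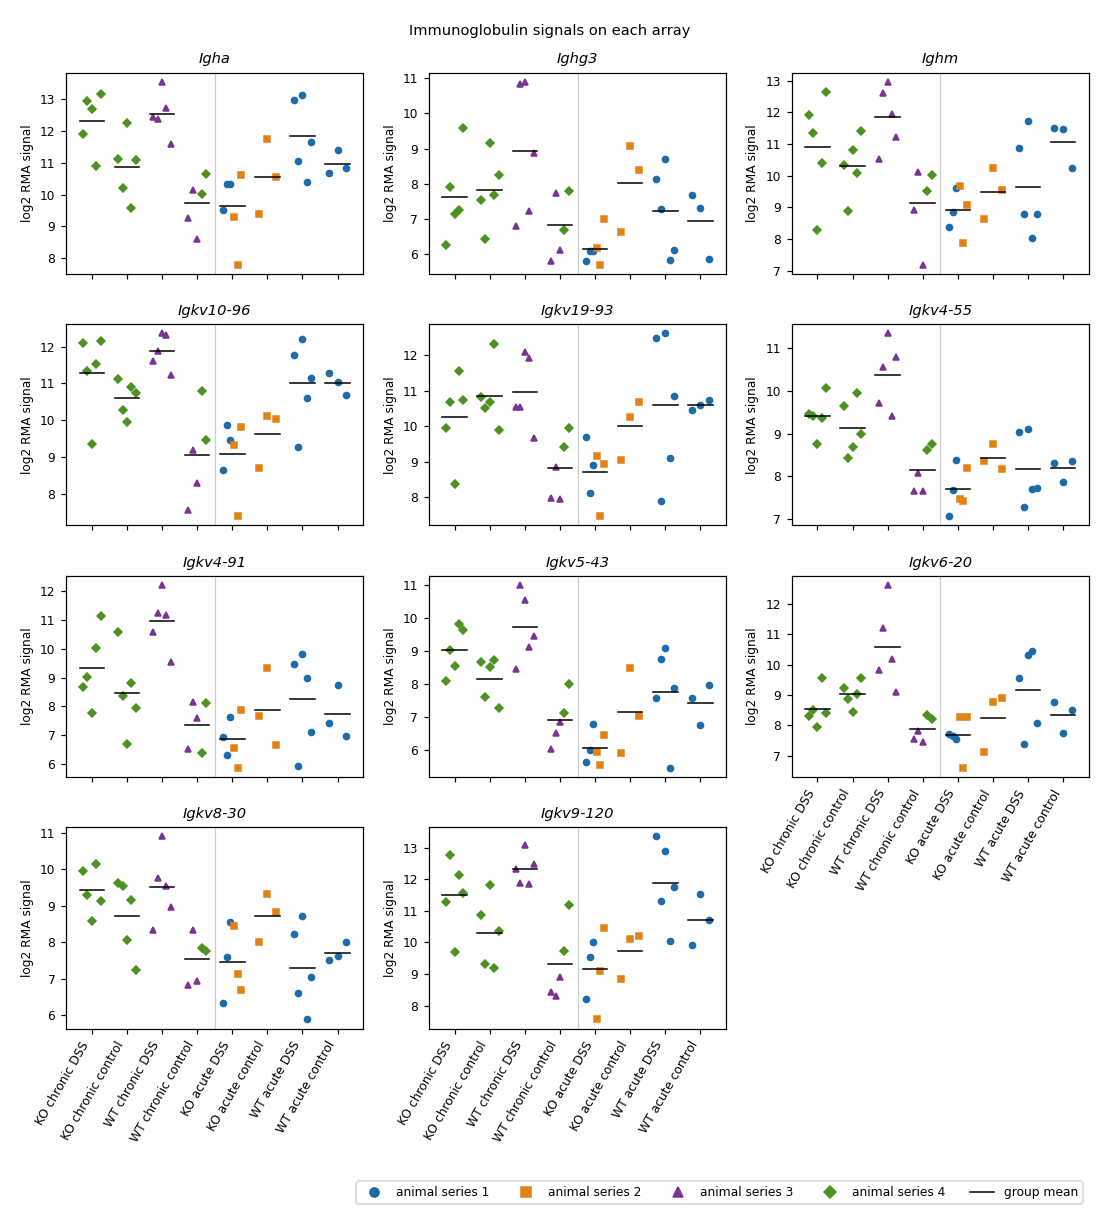
Log2 RMA signal (vertical axis) of each of the 11 immunoglobulin symbols on each of the 37 arrays, by group; marker shape and colour give the animal series and the black line is the group mean. Wild-type chronic DSS points sit above wild-type chronic control points without overlap for 9 of the 11 symbols.

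The chronic arm compares mice given DSS in the chronic protocol with their controls, in each genotype. In wild-type colon all 11 immunoglobulin symbols were higher with chronic DSS than in controls, by 1.96 to 3.59 log2 units, with a median of 2.72 (6.59-fold), against a median of -0.000988 over all genes. By this test 5.79% of all genes were higher. The groups did not overlap for 9 of the 11, against 6.23% of all genes. Most of the 11 calls were lost without the 3 wild-type controls that stand apart in Hox genes, as set out after the single genes.

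Igha, the heavy chain of the main mucosal antibody, had 12.44, 12.39, 13.56, 12.73 and 11.59 in wild-type chronic DSS colons, against 9.25, 10.14, 8.62, 10.03 and 10.66 in wild-type chronic control colons. Every DSS value lay above every control value. The difference was 2.80 ± 0.57, or 6.97-fold higher (adjusted p = 0.00101, limma).

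Ighm, the heavy chain of IgM, had 10.53, 12.61, 12.97, 11.96 and 11.23 in wild-type chronic DSS colons, against 8.91, 10.12, 7.19, 9.52 and 10.02 in wild-type chronic control colons. These groups did not overlap either, and differed by 2.71 ± 0.70 (adjusted p = 0.00801, limma). Ighg3, the heavy chain of IgG3, had 6.80, 10.82, 10.90, 7.25 and 8.87 in DSS colons, against 5.82, 7.74, 6.11, 6.68 and 7.80 in control colons. Its groups overlapped, since DSS mice 1 and 4 lay within the range of the controls. The difference of 2.10 ± 0.71 passed the threshold narrowly (adjusted p = 0.0433, limma), and it was kept in 9 of 20 alternatives (adjusted p from 0.0138 to 0.417). It failed when any of DSS mice 2, 3 or 5 or controls 1, 3 or 4 was left out, with array weights, with series as a covariate, within 1 series, with the compared arrays alone, and without controls 1 to 3.

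Among the kappa variable segments, Igkv4-91 showed the largest difference. It had 10.57, 11.26, 12.22, 11.18 and 9.53 in wild-type chronic DSS colons, against 6.52, 8.17, 7.60, 6.38 and 8.12 in wild-type chronic control colons. The gap was 3.59 ± 0.72, or 12.1-fold higher (adjusted p = 0.00076, limma), with no overlap. Igkv9-120 had 12.32, 11.87, 13.09, 11.85 and 12.49 in DSS colons, against 8.42, 8.31, 8.89, 9.74 and 11.18 in control colons, a difference of 3.02 ± 0.63 (adjusted p = 0.00126, limma). Control mouse 5 was the highest of the controls and still below every DSS mouse. Igkv10-96 was 2.83 ± 0.55 higher (adjusted p = 0.00057, limma).

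Igkv6-20 had 9.84, 11.20, 12.62, 10.18 and 9.10 in wild-type chronic DSS colons, against 7.54, 7.80, 7.46, 8.34 and 8.20 in wild-type chronic control colons. The ranges were separate and the difference was 2.72 ± 0.52 (adjusted p = 0.000535, limma). Igkv5-43, Igkv4-55 and Igkv8-30 were higher by 2.81 ± 0.54, 2.22 ± 0.36 and 1.96 ± 0.52, again without overlap. Igkv19-93 was 2.13 ± 0.69 higher (adjusted p = 0.0352, limma) with overlap at DSS mouse 5 (9.67, against up to 9.94 in controls), and lost its call without DSS mouse 3 or 4 or without control 1, 2 or 3.

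The 3 wild-type chronic controls with high Hox signal were also those with the lowest immunoglobulin signal. The mean of the 11 symbols was 7.50, 8.48 and 7.59 in wild-type chronic controls 1 to 3, against 8.59 and 9.08 in controls 4 and 5, and 10.11 to 12.06 in wild-type chronic DSS colons. Of 6 posterior Hox genes 5 were lower with DSS in this comparison (Hoxb13 by -2.70 ± 0.78, Hoxd13 by -2.64 ± 0.49, limma). No share of all genes called lower is given beside that count. Hoxb13 did not set controls 1 to 3 apart, at 11.45 to 11.65, against 6.04 to 11.80 on the other 34 arrays. Of 12 colon epithelium genes 2 were called higher and 1 lower, with a median difference of 0.04. Among them Cdx2, a transcription factor of intestinal epithelium (1.62 ± 0.40), and Fabp2, an intestinal fatty acid binding protein (2.36 ± 0.79), were higher (limma). Without controls 1, 2 and 3 the Hox count was 0 of 6, with Hoxb13 at -2.72 ± 1.08 and Hoxd13 at -1.16 ± 0.54, and Cdx2 and Fabp2 were not called (0.73 ± 0.49 and 0.98 ± 1.03). In the same fit all 11 differences stayed positive, at 1.28 to 3.70 with a median of 1.87, but 1 of 11 was called, Igkv4-91 (3.70, adjusted p = 0.0355), with 1.04% of all genes called higher and 9 of 11 at an unadjusted p under 0.05. That fit keeps only controls 4 and 5 in their group. Fewer mice and the Hox signal of controls 1 to 3 cannot be told apart in the loss of calls. Within series 3, which holds those 3 controls and all 5 DSS mice, 10 of 11 were called and the median was 3.12. No share of all genes called is given for the fit within series 3. The part of colon position in the result was not tested, and the Hox list was chosen after the values were seen. In bulk colon RNA, more antibody-making cells and more antibody RNA per cell cannot be told apart.

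Genes of plasma cells, which secrete antibody, were higher in the same comparison. Of 16 plasma cell genes 13 were higher in wild-type chronic DSS colon, and their median difference was 0.85. Jchain, which links IgA and IgM into polymers, had 11.94, 12.53, 12.82, 12.18 and 12.08 in wild-type chronic DSS colons, against 9.35, 10.56, 9.81, 10.88 and 11.31 in controls, and was higher by 1.93 ± 0.39 (adjusted p = 0.00081, limma). Derl3 and Mzb1 were higher by 1.55 ± 0.26 and 1.52 ± 0.30, and Prdm1, the transcription factor of plasma cell differentiation, by 1.28 ± 0.20. Tnfrsf17, the plasma cell survival receptor, was higher by 0.83 ± 0.19. Without controls 1 to 3 the count of plasma cell genes called was 4 of 16, with a median difference of 0.68, and Jchain differed by 1.21 ± 0.48 (adjusted p = 0.193, limma). Derl3 (1.31 ± 0.36) and Prdm1 (1.36 ± 0.27) kept their calls, and Mzb1 (1.29 ± 0.41) and Tnfrsf17 (0.63 ± 0.25) did not.

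Of 17 B cell genes measured 1 was called, Ly6d (1.43 ± 0.36), and the B cell surface gene Ms4a1 differed by 1.24 ± 0.66 (adjusted p = 0.23, limma). Without controls 1 to 3 the count was 0 of 17, with Ly6d at 0.97 ± 0.47. All 7 T cell genes were higher, by up to 1.22 ± 0.25 for Cd3g, with a median difference of 0.61. Without controls 1 to 3 their median was 0.58 and 0 of 7 were called, with Cd3g at 1.20 ± 0.34. Of 8 genes for antibody transport and Fc receptors 6 were higher, with Fcgr4 (1.27 ± 0.38) and Fcer1g (1.07 ± 0.32) in front and a median of 0.69. Without those controls 1 was called and the median was 0.78, with Fcgr4 at 1.25 ± 0.53 and Fcer1g at 1.19 ± 0.44. Pigr was at 13.45 to 13.66 in wild-type chronic DSS colons, against 13.58 to 13.68 in controls (-0.11 ± 0.36, adjusted p = 0.9). The part of these cell types in the immunoglobulin result was not tested.

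In knockout colon, chronic DSS gave 0 of 11 called immunoglobulin symbols, with 7.94% of all genes called in either direction. The groups overlapped for all 11, where 8.35% of all genes did not. The differences ran from -0.59 to 1.47 with a median of 0.69. An unadjusted p under 0.05 was found for 1 of 11, and for 4637 of 19938 genes. That symbol was Igha, at 11.92, 12.94, 12.69, 10.92 and 13.19 in knockout chronic DSS colons, against 11.14, 10.21, 12.27, 9.59 and 11.11 in knockout chronic control colons. The highest 3 values were DSS mice, and the difference was 1.47 ± 0.57 (adjusted p = 0.11, limma, 95% interval 0.30 to 2.64). Ighm differed by 0.61 ± 0.70, Ighg3 by -0.19 ± 0.71, Igkv9-120 by 1.18 ± 0.63 and Igkv19-93 by -0.59 ± 0.69. Jchain differed by 0.68 ± 0.39 (adjusted p = 0.3), and 2 of 16 plasma cell genes were called higher, Prdm1 (0.82 ± 0.20) and Sec11c (0.39 ± 0.11).

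**Figure D2:**
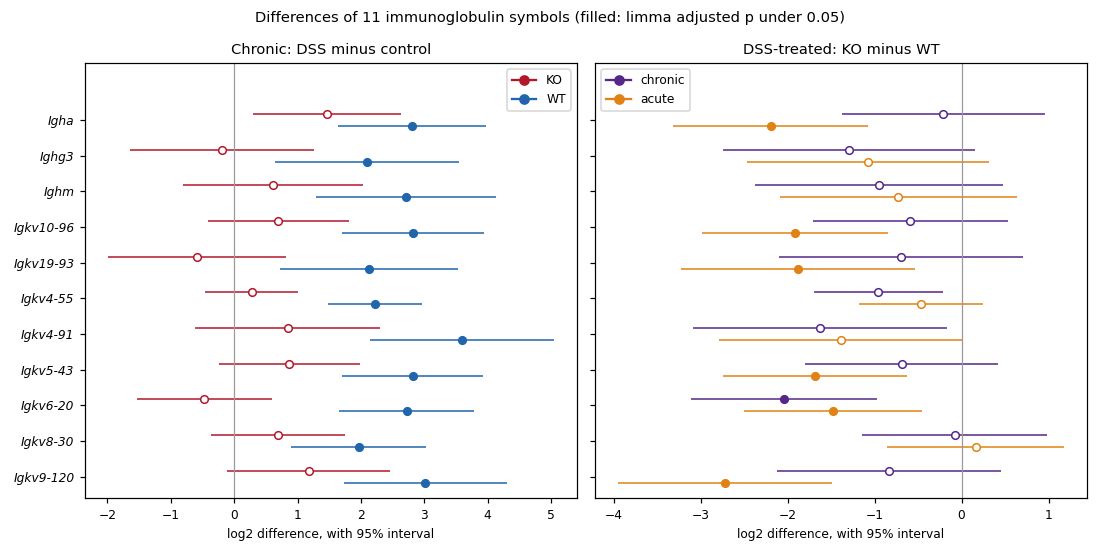
Log2 differences of the 11 symbols with 95% intervals, for chronic DSS minus control in knockouts and wild types (left) and for knockout minus wild type under chronic and acute DSS (right); filled points have a limma adjusted p under 0.05. All 11 wild-type chronic differences are filled and lie between 1.96 and 3.59, and 0 of the knockout chronic ones are.

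Whether the response to chronic DSS differed between genotypes was tested by the interaction. All 11 values were negative, from -3.19 to -1.27 with a median of -2.10, meaning a smaller DSS difference in knockouts. One symbol was called lower, Igkv6-20 (-3.19 ± 0.74, adjusted p = 0.0449, limma), against 0.15% of all genes. An unadjusted p under 0.05 was found for 9 of 11, and for 3022 of 19938 genes. Igkv6-20 had 8.32, 8.51, 7.96, 9.55 and 8.40 in knockout chronic DSS colons, against 9.22, 8.85, 8.42, 9.02 and 9.56 in knockout controls, so its DSS difference was -0.47 ± 0.52 in knockouts and 2.72 ± 0.52 in wild types. Its call was lost in 13 of 20 fits that each left out 1 array, among them each of wild-type controls 1, 2, 3 and 4, wild-type DSS mice 2 and 3, knockout DSS mice 3, 4 and 5 and knockout controls 1, 3, 4 and 5. Without wild-type controls 1, 2 and 3 together, 0 of 11 were called, 3 had an unadjusted p under 0.05, and the median was -1.40, with 0.0652% of all genes called.

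The interaction is made of 2 gaps between genotypes, which lie on either side of 0 but were each mostly below the threshold. Under chronic DSS all 11 symbols had lower means in knockouts than in wild types, with a median difference of -0.83, and 1 was called, Igkv6-20 (-2.04 ± 0.52, 4.12-fold lower, adjusted p = 0.0306, limma), with 1.3% of all genes called lower. Its ranges overlapped, as those of all 11 did where 3.15% of all genes did not, since knockout DSS mouse 4 (9.55) lay above wild-type DSS mouse 5 (9.10). Igha differed by -0.21 ± 0.57 and Igkv8-30 by -0.08 ± 0.52. The Igkv6-20 call was lost without wild-type DSS mouse 2 or 3 or knockout DSS mouse 3 or 5. All wild-type chronic DSS mice belong to series 3 and all knockouts to series 4, so genotype and series cannot be told apart there except through the wild-type controls. With series as a covariate 0 were called and the median was -1.98.

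In the chronic controls all 11 symbols had higher means in knockouts than in wild types, by 0.99 to 2.02 with a median of 1.15, and 0 were called (lowest adjusted p = 0.301, limma), with 0.1% of all genes called in either direction. At an unadjusted p under 0.05 there were 6 of 11, and 1886 of 19938 genes. Igkv19-93 was at 10.83, 10.51, 10.69, 12.34 and 9.88 in knockout controls, against 7.98, 8.86, 7.96, 9.41 and 9.94 in wild-type controls, a difference of 2.02 ± 0.69. Igkv6-20 alone did not overlap, with 8.42 to 9.56 in knockout controls and 7.46 to 8.34 in wild-type controls, where 1.36% of all genes were higher without overlap. Against the 2 wild-type controls of their own series, the knockouts differed by a median of 0.58. The limma fit without wild-type controls 1 to 3 had 0 symbols called and 0 at an unadjusted p under 0.05, with 0.0201% of all genes called.

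**Figure D3:**
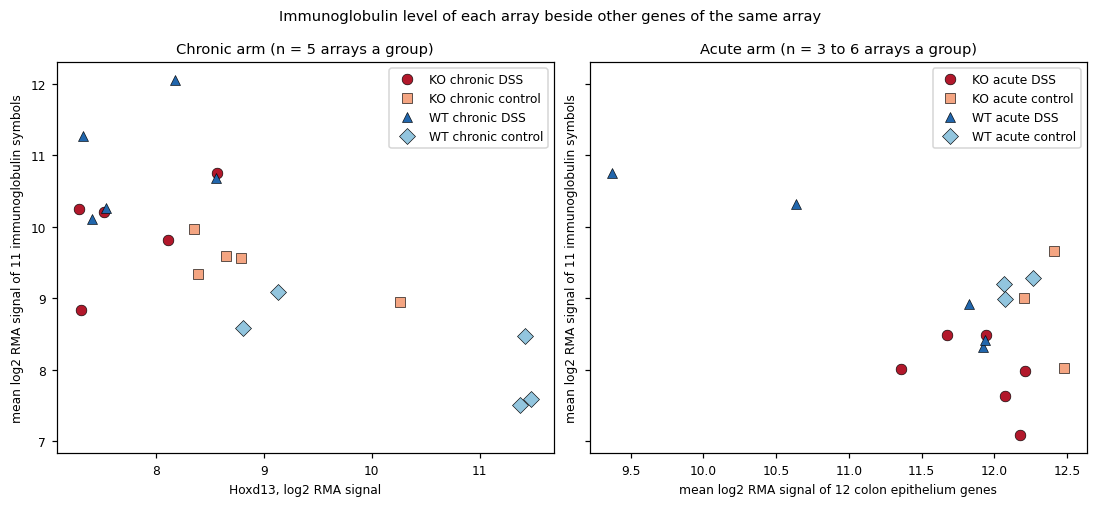
Mean log2 RMA signal of the 11 immunoglobulin symbols on each array (vertical axis) beside Hoxd13 of the same array for the chronic arm (left) and beside the mean of 12 colon epithelium genes for the acute arm (right), 1 point per mouse. Wild-type chronic controls 1 to 3 combine the highest Hoxd13, 11.37 to 11.48, with immunoglobulin means of 7.50 to 8.48, and wild-type acute DSS arrays 1 and 3 combine the lowest epithelium means with immunoglobulin means of 10.31 and 10.76.

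Acute DSS did not shift the immunoglobulin symbols past the threshold within either genotype. In wild-type colon 0 of 11 were called, where 41.2% of all genes were, and the differences ran from -1.43 to 1.16 with a median of 0.27. At an unadjusted p under 0.05 the count was also 0 of 11, against 9774 of 19938 genes. The groups overlapped for every symbol, where 39.1% of all genes did not. Wild-type acute DSS colons were split, with means of the 11 symbols at 10.31 and 10.76 on arrays 1 and 3 and 8.32, 8.41 and 8.92 on arrays 2, 4 and 5, against 8.99 to 9.28 in wild-type acute controls. Arrays 1 and 3 also had the lowest Pigr, at 11.14 and 9.76, against 12.94 to 13.36 on the other 3. Without them the median was -0.53 and 1 of 11 was called, with 16.6% of all genes lower. That symbol was Ighm, at -2.53 (adjusted p = 0.018, limma), against -1.43 ± 0.81 with all arrays.

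In knockout colon acute DSS gave 0 of 11 called, with 1.12% of all genes called in either direction. All 11 differences were negative, from -1.88 to -0.53 with a median of -0.92. Of the 11, 2 had an unadjusted p under 0.05, Ighg3 (-1.88 ± 0.79) and Igkv8-30 (-1.27 ± 0.58). That share is near the 3251 of 19938 genes. Ighg3 was at 5.71 to 7.00 with a median of 6.10 in the 6 knockout acute DSS colons, against 6.63, 9.08 and 8.39 in knockout acute controls. The groups overlapped through DSS mouse 6 and control 1, and they did for all 11 symbols, where 6.47% of all genes did not. Without the 2 arrays with Y-linked signal 0 were called and the median was -0.38. The acute interaction had 0 of 11 called (10 negative, median -1.39, 12.3% of all genes called in either direction). An unadjusted p under 0.05 was found for 0 of 11, against 5625 of 19938 genes. Without wild-type acute DSS arrays 1 and 3 the interaction again had 0 called, with a median of -0.63 and 5.81% of all genes called. It had 0 called, with a median of -0.76, without the arrays with Y-linked signal.

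Under acute DSS, 6 of 11 symbols were called lower in knockouts than in wild types and 10 of 11 had lower means, where 15.2% of all genes were called lower. The 11 differences ran from -2.72 to 0.16 with a median of -1.48, against 0.02 over all genes. Igkv9-120 was at 7.57 to 10.46 with a median of 9.33 in the 6 knockout acute DSS colons, against 13.36, 11.30, 12.89, 10.06 and 11.76 in wild-type acute DSS colons. Only wild-type mouse 4 lay within the knockout range. The difference was -2.72 ± 0.61, or 6.59-fold lower (adjusted p = 0.000944, limma).

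Igha was at 7.80 to 10.61 with a median of 9.93 in knockout acute DSS colons, against 12.99, 11.05, 13.13, 10.39 and 11.65 in wild-type acute DSS colons. The ranges met at wild-type mouse 4, and the difference was -2.19 ± 0.55, or 4.57-fold lower (adjusted p = 0.00271, limma). Igkv10-96 (-1.92 ± 0.53, adjusted p = 0.00548) was also lower, followed by Igkv19-93 (-1.88 ± 0.66), Igkv5-43 (-1.69 ± 0.52) and Igkv6-20 (-1.48 ± 0.50). Ighm (-0.73 ± 0.67), Ighg3 (-1.07 ± 0.68) and Igkv8-30 (0.16 ± 0.50) did not pass. The groups overlapped for every symbol, where 6% of all genes did not. Without the arrays with Y-linked signal 6 were called and the median was -1.60, in a fit for which no share of all genes called is given.

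These calls leaned on wild-type acute DSS arrays 1 and 3. Leaving out array 3 alone left 3 called, and leaving out both left 0 of 11 (median -0.57, lowest adjusted p = 0.0575 for Igkv9-120 at -1.89, 12.5% of all genes called in either direction), with 4 at an unadjusted p under 0.05. Within series 1, with 3 knockouts and 5 wild types, 0 were called although the median was -1.52. With series as a covariate 3 were called. The calls of Igkv19-93, Igkv5-43 and Igkv6-20 were each lost without array 3, and those of Igkv19-93 and Igkv6-20 also without array 1. Igkv19-93 was further lost without wild-type mouse 5 or knockout mouse 2 or 5, and Igkv6-20 without wild-type mouse 4 or knockout mouse 5.

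Other antibody-related genes differed in the same comparison, in both directions. Jchain was at 8.54 to 10.19 with a median of 9.90 in knockout acute DSS colons, against 12.05, 9.80, 12.34, 10.40 and 10.65 in wild-type acute DSS colons, and was lower in knockouts (-1.48 ± 0.37, adjusted p = 0.00259, limma). Of 16 plasma cell genes 2 were lower, Jchain and Sdc1 (-0.70 ± 0.12), a share near the 15.2% of all genes called lower. Sec11c was higher (0.46 ± 0.11), while Mzb1 (-0.22 ± 0.29) and Tnfrsf17 (-0.11 ± 0.18) did not pass. Pigr (1.35 ± 0.34) and Ccl28 (1.42 ± 0.35), an epithelial chemokine that draws IgA plasma cells, were higher in knockouts. The cell adhesion gene Vcam1 (-1.29 ± 0.27), Cxcl13 (-1.24 ± 0.42), which attracts B cells to follicles, and the inhibitory Fc receptor Fcgr2b (-1.03 ± 0.26) were lower. Of 11 B cell and plasma cell survival and homing genes 1 was higher and 2 lower (median -0.06). Of 9 germinal centre and class switch genes 2 were higher and 3 lower (median 0.15). Of 8 antibody transport and Fc receptor genes 1 was higher and 3 lower (median -0.26). These lists had 0, 1 and 1 higher and 1, 0 and 0 lower without wild-type arrays 1 and 3. Without wild-type arrays 1 and 3 the calls of Pigr (0.26 ± 0.08, adjusted p = 0.0205), Vcam1 (-0.82 ± 0.27) and Sdc1 (-0.46 ± 0.11) were kept. Those of Jchain (-0.72 ± 0.35, adjusted p = 0.185), Sec11c (0.29 ± 0.11), Ccl28 (0.48 ± 0.23), Cxcl13 (-0.81 ± 0.49) and Fcgr2b (-0.65 ± 0.27) were lost.

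Markers of other cell types also differed between knockout and wild-type acute DSS colons. Of 12 colon epithelium genes 6 were higher in knockouts, and 1 without wild-type arrays 1 and 3. Of 7 T cell genes 4 were higher, and 6 without those arrays, where Cd3g was at 0.93 ± 0.26. Of 6 smooth muscle genes 3 were lower, and 0 without them. Over all genes 15.2% were called lower with all arrays, and 12.5% in either direction without arrays 1 and 3. No share of all genes called higher is given beside these counts, so the higher ones cannot be set against it. The part of these cell types in the immunoglobulin result was not tested.

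The acute controls gave 0 of 11 called between knockouts and wild types (differences from -1.59 to 1.08, median -0.30), with 1.12% of all genes called in either direction. An unadjusted p under 0.05 was found for 0 of 11, against 2605 of 19938 genes. With 3 mice in each group, Igkv10-96 (8.71, 10.12 and 10.04 in knockouts, against 11.28, 11.05 and 10.70 in wild types) and Ighm lay lower without overlap, where 15% of all genes did, and Igkv8-30 lay higher, where 10.8% did. Without the control with Y-linked signal 0 were called and the median was -0.73. Knockout acute controls are all of series 2 and wild-type acute controls of series 1, so genotype and series cannot be told apart within them.

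Chronic controls were also set against acute controls of the same genotype. In knockouts 0 of 11 were called (median 0.72, 4.48% of all genes called in either direction). An unadjusted p under 0.05 was found for 0 of 11, against 4324 of 19938 genes. The groups overlapped for all 11, where 19.6% of all genes did not, and without the control with Y-linked signal the median was 0.98. In wild types all 11 means were lower in the chronic than in the acute controls, by a median of -0.53. Of these 0 were called (lowest adjusted p = 0.0558 for Igkv10-96 at -1.95 ± 0.63, limma). An unadjusted p under 0.05 was found for 3 of 11, and for 4514 of 19938 genes. Here 7.02% of all genes were called in either direction. Igha, Ighm and Igkv19-93 lay lower without overlap, where 11.3% of all genes did. Without wild-type chronic controls 1, 2 and 3 the median was -0.26, with 7 of 11 negative, 0 called and 1.6% of all genes called. Leaving out wild-type chronic control 4 alone gave 1 called.

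The balance of IgA over IgM transcripts within each array was compared as Igha minus Ighm, a measure chosen after the values were seen. In wild-type acute DSS colons it was 2.13, 2.24, 1.41, 2.36 and 2.86, against -0.80, -0.06 and 0.58 in wild-type acute controls. All 5 DSS mice lay above all 3 controls, with means of 2.20 ± 0.52 (SD, n = 5) and -0.09 ± 0.69 (SD, n = 3). The two-sided exact permutation test over arrays gave p = 0.0179, the smallest that 56 splits allow, and 0.0893 after adjustment over 10 comparisons. Igha differed by 0.86 ± 0.66 and Ighm by -1.43 ± 0.81 in that comparison, neither called. Without DSS arrays 1 and 3 the difference in balance was 2.58, with an exact permutation p of 0.1, the smallest that 20 splits allow.

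Among mice given acute DSS the balance averaged 0.74 ± 0.81 in the 6 knockouts, against 2.20 ± 0.52 in the 5 wild types (SD), a difference of -1.47 (exact permutation p = 0.013, adjusted 0.0893), which failed the correction. It was -1.75 without wild-type arrays 1 and 3 and -1.24 without the knockout array with Y-linked signal (exact permutation p = 0.0238 each, unadjusted). In the acute controls the balance was 1.09 ± 0.39 in knockouts and -0.09 ± 0.69 in wild types (SD, n = 3 each). That gap lies the other way, with an exact permutation p of 0.1, the smallest that 20 splits allow. In knockouts the balance with acute DSS minus control was -0.35 (exact permutation p = 0.56), and 0.09 without the arrays with Y-linked signal. In the chronic arm it was 1.42 ± 1.78 in knockout DSS and 0.56 ± 0.90 in knockout control colons, and 0.68 ± 0.78 in wild-type DSS and 0.59 ± 0.53 in wild-type control colons (SD, n = 5 each). Without wild-type controls 1 to 3 the wild-type control mean was 0.57. Knockout chronic DSS mouse 3, with Igha at 12.69 and Ighm at 8.27, had the highest balance of all arrays, 4.43.

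**Figure D4:**
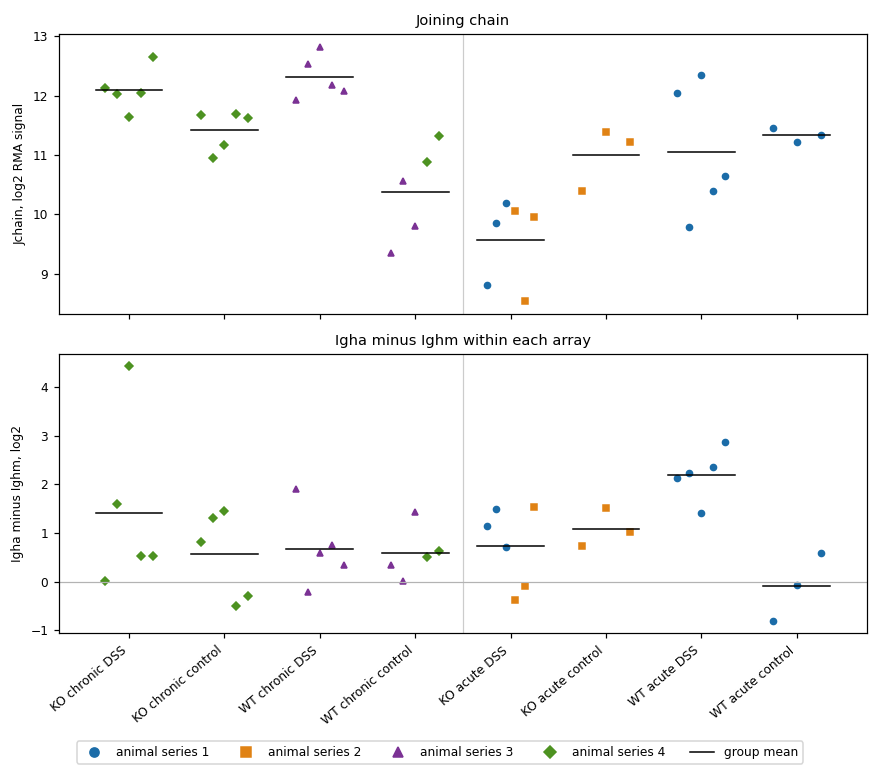
Log2 RMA signal of Jchain (top) and Igha minus Ighm within each array (bottom) for all 37 mice by group; marker shape and colour give the animal series and the black line is the group mean. In the acute arm the 5 wild-type DSS mice lie at 1.41 to 2.86 for the balance, above the 3 wild-type controls, and 3 of those DSS mice have Jchain below the controls.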

How the data were processed

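The authors deposited 1 log2 value for each transcript cluster and array, computed with RMA per the submitters' processing notes. No log base is named there, and 2 was assumed from the range of the values. The table held 35511 clusters, and probe annotation listed 21789 with 1 symbol, 1621 with several, and 12101 not at all. Chromosomes come from RefSeq (GRCm38.p6), used for names only. Several immunoglobulin symbols are attached through transcripts that were already rearranged, and similar segments share sequence, so each symbol's signal may include related segments. All 37 arrays entered 1 limma model with 8 group means (limma 3.58.1, R 4.3.3), no filter, Benjamini-Hochberg adjustment over 19938 genes, two-sided p values. In simulated data 100% of genes with differences of 2 log2 units between wild-type chronic groups were recovered, and 2.63% of calls were false. The simulation was of all 19938 genes, and the immunoglobulin symbols varied far more within groups than most of them. The 100% therefore does not give the share of immunoglobulin symbols that would be recovered.

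Named were all constant genes, the 4 variable segments with the highest mean or the largest pooled SD, the 3 called with the largest differences either way, the 3 members of other lists with the largest called differences, and Jchain, Pigr, Mzb1, Tnfrsf17, Ms4a1 and Timp1; others were added after their values were seen. Members and lists were chosen with earlier results of these data known, and the Hox list after seeing values. Of 116 list symbols 107 were measured. Replicates were separate mice, 3 to 6 a group, whose number limits precision. Alternatives covered the prior, dim genes, clusters, cyclic loess, array weights, animal series, the arrays compared and leaving out arrays.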

Additional observations from a re-analysis of the deposited data

Results flagged for a closer look

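Each symbol was examined in each group of 4 to 6 arrays for a single array far from the rest. These 66 combinations of symbol and group share arrays and are not independent. Such an array was found in 1 of them, where chance gives about 1 in 20. It was Ighg3 on knockout acute DSS array 6, at 7.00, with the next highest of the 6 arrays at 6.17.

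The Igkv6-20 response to chronic DSS differed between genotypes by the interaction test, at -3.19 (knockout minus wild type, adjusted p = 0.0449 in limma), as described above with the arrays on which the call rests.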

How the results depend on the processing

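No paired analysis was possible because the animal numbers are each used once and pair no mice across groups. Counts below are of 11 symbols called. No share of all genes called is given for the fits with array weights, series, compared arrays or single arrays left out. Nor is one given without the arrays with Y-linked signal or with clusters of several symbols. The trended prior, the filter on dim genes, separate clusters and cyclic loess have none either. The counts of all these fits cannot be set against such a share. For an unadjusted p under 0.05, counts over all genes are given for the main fit alone. With each array left out in turn the counts ran from 9 to 11 for chronic DSS in wild types, from 3 to 7 between the genotypes under acute DSS, from 0 to 1 between them under chronic DSS, from 0 to 2 for the chronic interaction and from 0 to 1 for chronic against acute wild-type controls. The other 7 comparisons had 0 in every such fit. Array weights gave 2 lower in knockouts than in wild types with acute DSS, 2 lower in the acute controls, 3 higher in the chronic controls, 4 lower for the chronic interaction, 1 lower for acute DSS in wild types, and 1 higher in knockouts and 5 lower in wild types for chronic against acute controls. With series as a covariate the counts were 3 under acute DSS and 0 under chronic DSS for knockout against wild type, and 2 for the chronic interaction. One series alone gave 0 under acute DSS. The compared arrays alone gave 3 under acute DSS, 0 under chronic DSS and 2 for chronic against acute wild-type controls. With clusters of several symbols counted 24 of 25 were called for chronic DSS in wild types and 7 of 25 between the genotypes under acute DSS. Chronic DSS in wild types had 10 with array weights, with series as a covariate, in 1 series alone and with the compared arrays alone. Without wild-type chronic controls 1 to 3 the counts were 1 for chronic DSS in wild types and 0 for the interaction, and without wild-type acute DSS arrays 1 and 3 they were 1 for acute DSS in wild types and 0 for knockout against wild type, all added after seeing the data. The cause of these changes was not tested. The trended prior, the filter on dim genes (all 11 kept), the separate clusters and cyclic loess left the counts within 1.5 times their value, except 1 lower for chronic against acute wild-type controls with that filter. With separate clusters a symbol counted as called if any of its clusters was, so that count could hardly fall. No called difference changed sign. Series could not be fitted for chronic against acute controls.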

Other observations

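The 14 clusters that list several immunoglobulin symbols, among them heavy-chain variable, lambda and kappa constant genes, were read beside the 11 symbols. In chronic wild types all 14 had positive differences, DSS minus control, from 1.29 to 3.12 with a median of 2.16, and the 2 clusters that list lambda symbols were the lowest of them, at 1.29 and 1.68. Of the 25 symbols and clusters together 24 were called higher, in a fit for which no share of all genes called is given. In knockout chronic colon 13 of these 14 had positive differences, with a median of 0.57. Between knockout and wild-type acute DSS colons all 14 were negative, with a median of -0.78, and 7 of the 25 symbols and clusters were called lower, against 6 of the 11 symbols. For acute DSS in wild types 13 of the 14 were negative with a median of -0.57, whereas 6 of the 11 symbols were positive with a median of 0.27, and 0 of the 25 were called.

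Symbols with more than 1 cluster gave a second reading. The other Igha cluster differed by 2.70 between wild-type chronic DSS and control colons, against 2.80 for the one used. The 2 other Ighm clusters differed by 1.83 and 2.40, against 2.71, and the other Igkv19-93 cluster by 0.96, against 2.13.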
